A study of Mus musculus with 4 samples.

Results

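Genes of blood and lymphatic vessels were followed in small intestinal tumours of 2 ApcMin/+ mice, large tumours against small ones. The genes were chosen by name, 42 in all. On the Illumina bead array, 40 of the names had at least 1 probe, some under an older symbol, 71 of the 45281 probes in all, and 31 of these genes passed the filter on dim probes and were tested among 13906 genes. The names Cldn5x and Acvrl1x matched no probe as spelled, and Cldn5 and Acvrl1 are given below among the other endothelial genes. In ApcMin/+ mice 1 of the copies of Apc, whose product restrains Wnt signalling, is truncated by a mutation, and adenomas form throughout the gut. All 4 samples were ApcMin/+ tumours of the C57BL/6J strain taken at 30 weeks of age, so no wild-type or tumour-free tissue enters the comparison. Each sample was a pool of 3 tumours from 1 mouse: large tumours (4 to 5 mm across) of mouse 1 and of mouse 2, and small tumours (at most 2 mm) of mouse 1 and of mouse 2.

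Blood vessels are lined by endothelial cells that seal their contacts with VE-cadherin and respond to growth factors of the VEGF, angiopoietin and apelin families through receptors on their surface. Transcription factors of the ETS and SOX families hold the endothelial programme. Lymphatic vessels drain fluid and, in the villi of the small intestine, absorbed fat. Their endothelium carries the hyaluronan receptor Lyve1 and the receptor Flt4 for the ligand Vegfc, and is specified by the transcription factor Prox1. Growing tumours recruit vessels, and inflamed vessels display adhesion molecules that capture leukocytes.

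Values are log2 normalized intensities on a scale where undetected probes lie near 4.2 to 4.9, and a difference is large minus small on that scale. A probe was called detected on an array where its detection p, which sets its signal against the negative control probes, was under 0.05. The 4 arrays had 18969 to 19990 detected probes. The array of small tumours of mouse 2 stood apart. Its Pearson r with the other arrays across genes was 0.940 to 0.952, against 0.963 to 0.978 among the other arrays, genes not being independent replicates. With 2 arrays per size the number of arrays limits the precision, and an exact permutation test of a single gene cannot go below p = 0.333 (two-sided). The p-values and standard errors (SE) without the mouse in the model rest on the spread between 2 animals. limma drew that spread towards a value shared by all tested probes, so an SE is not the gene's own spread alone.

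Of the defining endothelial markers, Cdh5, Pecam1, Emcn and Robo4 were detected on all 4 arrays and Tie1 on 3, so endothelial RNA was present in every pool. Both probes of Kdr, the main signalling receptor for VEGF, were not well above background on any array, with signals of 51.9 to 62.7. Of the lymphatic markers, Lyve1, Pdpn, Mmrn1, Prox1 and Ccl21a were detected on all 4 arrays, and none of the 3 Flt4 probes was detected on more than 1.

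Blood vessel genes leaned towards large tumours, and no vessel gene passed the test. Of 24 tested blood vessel genes, 12 were higher and 1 was lower in large tumours in both mice, against 30.7% higher and 26.7% lower among all tested genes. The median difference of the blood vessel genes was 0.48 in mouse 1, 0.47 in mouse 2 and 0.37 for each gene's mean over both, where the medians of all tested genes were 0.03 in mouse 1 and 0.01 in mouse 2. In mouse 1, 21 of the 24 were higher in the large pool, against 53.3% of all genes, and in mouse 2, 14 were (58.3%), against 50.7%, so that 11 went opposite ways. Both large pools lay above both small pools for 11 of them and below for 1 (Rasip1), against 22.2% above and 17.6% below among all tested genes. In limma without the mouse as a block, 0 of the 31 vessel genes passed at an adjusted p under 0.05, where 0% of all genes did. With the mouse as a block, limma again passed 0 vessel genes, where 0.41% of all genes passed higher and 0.273% passed lower. At an unadjusted p under 0.05 without the block, 3 vessel genes were higher (Aplnr, Cdh5 and Sox18) and 0 lower, against 3.98% higher and 3.26% lower of all genes. The limma adjusted p of the 31 genes ran from 0.588 to 0.996 without the block and from 0.123 to 0.997 with it. In tissue RNA, a difference in the number of vessel cells and a difference in RNA per vessel cell cannot be told apart.

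**Figure D1:**
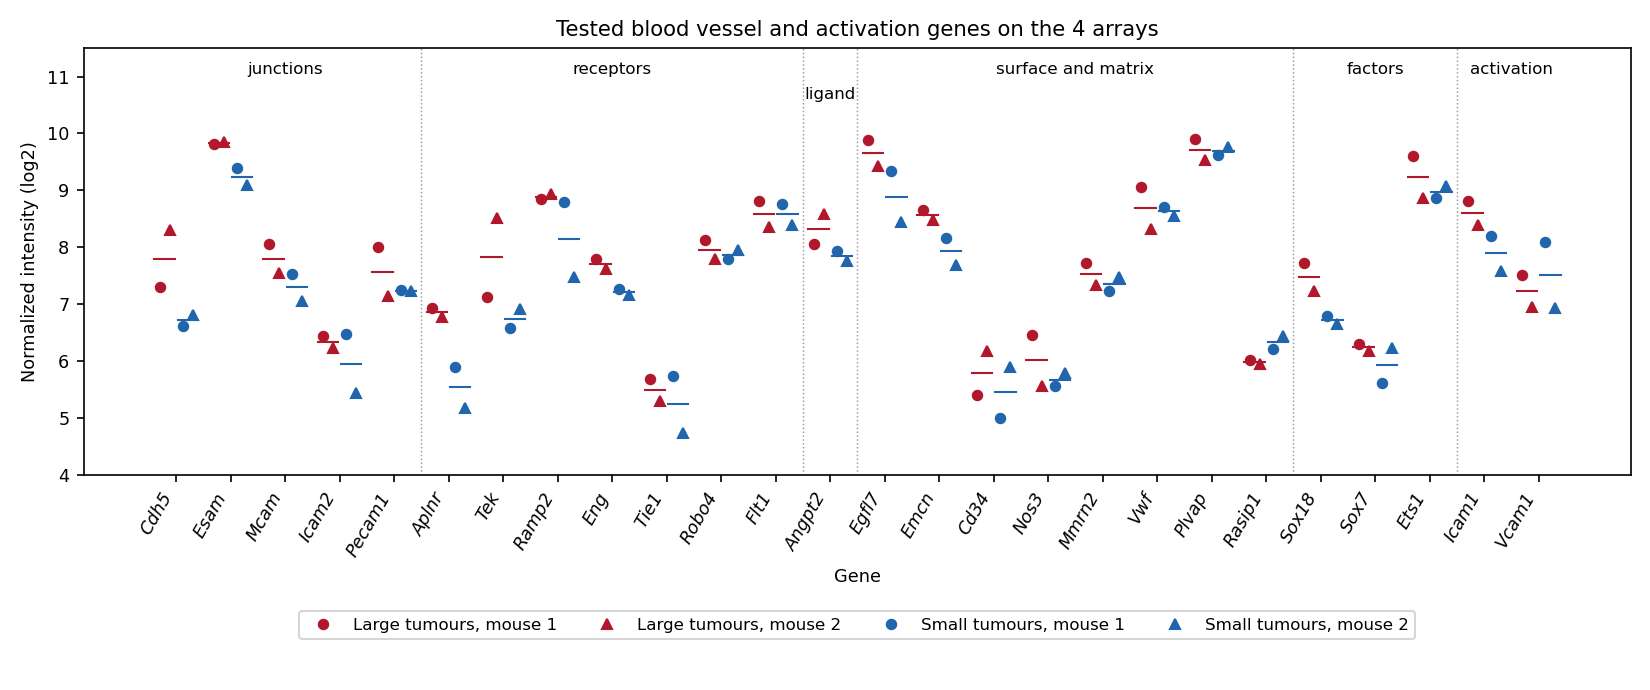
Log2 normalized intensity (y axis) of the 24 tested blood vessel genes and 2 tested activation genes (x axis, by role) on each array; red marks large and blue small tumours, circles mouse 1 and triangles mouse 2, and lines are means of 2 arrays. Aplnr, Cdh5 and Tek show both large pools above both small pools, while Flt1, Plvap and Vwf overlap.

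Among the receptors, Aplnr, which binds the peptide apelin and marks sprouting endothelium, had the largest difference of the 31 tested genes as normalized here. Tek and Cdh5 exceeded it in the authors' normalized values, at an offset of 50, and where background was not corrected. Its level was 6.93 and 6.78 in large tumours of mouse 1 and mouse 2, against 5.90 and 5.18 in small tumours. Both large pools lay above both small pools, by 1.03 in mouse 1 and 1.60 in mouse 2, and it was the only vessel gene at least 2-fold higher in both mice, as 0.942% of all genes were. Averaged over mice it was 2.49-fold higher (log2 difference 1.32 ± 0.34 (SE); adjusted p of 0.588 in limma, or 0.123 blocked on the mouse). With the block and only probes detected on all 4 arrays, it passed (limma adjusted p = 0.0360), as 322 of 16072 probes did. With the block and no background correction it did not pass (limma adjusted p = 0.512) and its difference was 0.74. In the authors' normalized values the difference was 0.85. Its ligand gene Apln was not detected on any array, so the 2 sides of that pair could not be compared.

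Tek, the receptor of the angiopoietins, measured 7.13 and 8.52 in large tumours, against 6.58 and 6.91 in small tumours. The large pool of mouse 2 was the highest of the 4, and the groups did not overlap. The difference was 0.55 in mouse 1 and 1.61 in mouse 2, and 1.08 ± 0.47 (SE) over both (limma adjusted p = 0.652). Without the large pool of mouse 2 it was 0.39. Tie1, its relative without an established ligand of its own, measured 5.68 and 5.30 in large tumours, against 5.74 and 4.73 in small tumours, the last of these not detected, so that the groups overlapped. The VEGF receptor gene Flt1 measured 8.81 and 8.36 in large tumours, against 8.76 and 8.40 in small tumours, and differed by less than 0.1 in each mouse. Eng, a TGF-beta co-receptor of endothelium, measured 7.80 and 7.61 in large tumours, against 7.27 and 7.16 in small tumours. Its groups did not overlap, and its differences were nearly alike in the mice (0.53 and 0.45). Ramp2, which makes the calcitonin-receptor-like receptor respond to adrenomedullin, measured 8.84 and 8.94 in large tumours, against 8.80 and 7.48 in small tumours. Its distance between sizes came from mouse 2 (1.46, against 0.04 in mouse 1), and without the small pool of mouse 2 the difference over both was 0.10. Robo4, a guidance receptor that stabilizes vessels, measured 8.12 and 7.78 in large tumours, against 7.79 and 7.95 in small tumours, with differences of opposite sign in the mice.

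Among the junction and adhesion genes, Cdh5, which encodes VE-cadherin, lay highest in the large pool of mouse 2. It measured 7.30 and 8.30 in large tumours, against 6.62 and 6.81 in small tumours, a 2.12-fold difference over both mice (1.08 ± 0.39 (SE); adjusted p of 0.603 in limma, or 0.231 blocked on the mouse). A second Cdh5 probe gave 6.33 and 7.66 in large tumours, against 5.58 and 5.80 in small tumours, so both probes placed the large pools above the small ones. Without the large pool of mouse 2 the difference of the first probe was 0.59. Esam, an adhesion molecule of tight contacts, measured 9.82 and 9.85 in large tumours, against 9.39 and 9.09 in small tumours. Mcam, the adhesion molecule of endothelium and pericytes, measured 8.05 and 7.55 in large tumours, against 7.53 and 7.06 in small tumours. The groups of Esam and Mcam did not overlap, and the 3 Mcam probes were all higher in large tumours in both mice, by 0.22 to 0.996. Pecam1, the general endothelial and platelet adhesion molecule, measured 7.996 and 7.15 in large tumours, against 7.25 and 7.23 in small tumours. Its excess in mouse 1 (0.75) was not shared by mouse 2 (-0.08), and a second probe differed by 0.12 and 0.35. Icam2, a constitutive endothelial ligand of leukocyte integrins, measured 6.45 and 6.24 in large tumours, against 6.47 and 5.44 in small tumours, so the groups overlapped.

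The surface and matrix genes were divided. Egfl7, a secreted regulator of vessel formation made by endothelium, measured 9.89 and 9.43 in large tumours, against 9.34 and 8.44 in small tumours (difference 0.78 ± 0.39 (SE); limma adjusted p = 0.672). The Egfl7 difference became 1.22 when the small pool of mouse 1 was left out and 0.33 when that of mouse 2 was. Its 2 other probes were also higher in both mice. Emcn, a sialomucin of capillary and venous endothelium, measured 8.65 and 8.48 in large tumours, against 8.17 and 7.70 in small tumours, and its groups did not overlap. Cd34, a sialomucin shared with fibroblasts and blood progenitors, differed more between mice than between sizes. It measured 5.41 and 6.18 in large tumours, against 5.00 and 5.90 in small tumours. The other genes of this group were not higher in both mice. Plvap, which forms the diaphragms of fenestrated capillaries, measured 9.90 and 9.54 in large tumours, against 9.63 and 9.77 in small tumours. Vwf, the clotting factor stored in endothelium and platelets, measured 9.07 and 8.32 in large tumours, against 8.70 and 8.55 in small tumours. Mmrn2, a matrix protein of endothelium, measured 7.72 and 7.34 in large tumours, against 7.23 and 7.48 in small tumours. These 3 genes, and Nos3, which makes vessel-relaxing nitric oxide, were higher in mouse 1 and lower in mouse 2, with overlapping groups. Nos3 measured 6.46 and 5.56 in large tumours, against 5.55 and 5.79 in small tumours, and its 3 tested probes disagreed in sign over both mice. Rasip1, a Ras-interacting protein needed for vessel lumens, was the only blood vessel gene lower in both mice: it measured 6.02 and 5.95 in large tumours, against 6.21 and 6.44 in small tumours.

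Of the endothelial transcription factors, Sox18 was the only gene whose brightest probe was higher in both mice. It measured 7.72 and 7.24 in large tumours, against 6.80 and 6.65 in small tumours (difference 0.76 ± 0.31 (SE); limma adjusted p = 0.638). Sox7, a member of the same SOX subgroup, measured 6.30 and 6.18 in large tumours, against 5.61 and 6.23 in small tumours. Ets1, which lymphocytes express as well, measured 9.60 and 8.87 in large tumours, against 8.87 and 9.07 in small tumours. Both Sox7 and Ets1 were higher in mouse 1 and lower in mouse 2, though a second Sox7 probe, detected on all 4 arrays, differed by 0.33 and 0.02. Erg, an ETS factor that maintains endothelial identity, was not detected by either of its probes. Of the ligands, Angpt2, which destabilizes vessels and is released by activated endothelium, was the only gene tested. It measured 8.05 and 8.58 in large tumours, against 7.93 and 7.75 in small tumours, with the large pool of mouse 2 the highest (differences 0.12 and 0.82).

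RefSeq promoter entries (GRCm38.p6) were matched to 21 of the vessel genes. The sequences below are the 250 bases before the annotated start for Tek and Egfl7, which among the matched genes had the largest excess in large tumours, and for Mmrn1, which had the largest deficit. Capitals mark matches to the ETS letters AGGAAG or CGGAAG and to the SOX letters AACAAT, read on both strands. The motifs share no overlapping match in these windows. Tek lies at chr4:94739039-94739288, Egfl7 at chr2:26580833-26581082 (the first of 3 annotated starts) and Mmrn1 at chr6:60944067-60944316, all on the plus strand.
Tek: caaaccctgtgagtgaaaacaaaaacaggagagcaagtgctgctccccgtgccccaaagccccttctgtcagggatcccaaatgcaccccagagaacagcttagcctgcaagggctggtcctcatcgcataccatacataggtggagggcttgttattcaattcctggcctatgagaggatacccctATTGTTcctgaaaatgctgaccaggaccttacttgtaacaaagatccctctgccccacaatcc
Egfl7: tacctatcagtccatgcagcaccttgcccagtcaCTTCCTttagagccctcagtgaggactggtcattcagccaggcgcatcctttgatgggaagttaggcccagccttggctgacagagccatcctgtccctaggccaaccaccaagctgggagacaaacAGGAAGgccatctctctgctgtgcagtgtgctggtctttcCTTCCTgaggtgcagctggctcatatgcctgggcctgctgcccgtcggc
Mmrn1: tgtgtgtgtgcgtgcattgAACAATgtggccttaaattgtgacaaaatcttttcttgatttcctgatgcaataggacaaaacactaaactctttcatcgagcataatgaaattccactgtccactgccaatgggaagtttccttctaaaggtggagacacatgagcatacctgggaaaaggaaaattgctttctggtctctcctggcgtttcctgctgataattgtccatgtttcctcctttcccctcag
The Egfl7 window held 3 ETS matches and no SOX match, while the Tek and Mmrn1 windows held 1 SOX match each and no ETS match. ETS letters stood in 13 of 26 windows of vessel genes, against 39.2% of all 32851 windows, and SOX letters in 4 (15.4%), against 9.42%. Letters at this frequency describe the windows and do not mark sites of binding.

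In mouse 1 the lymphatic vessel genes did not follow the blood vessel genes, while in mouse 2 both had a positive median. Of the 5 tested, 1 was higher (Pdpn) and 1 lower (Mmrn1) in both mice and the other 3 went opposite ways. These are 20% each, against 30.7% higher and 26.7% lower among all tested genes. Taken by animal, 1 of the 5 was higher in the large pool of mouse 1, against 53.3% of all genes. In mouse 2, 4 were (80%), against 50.7%. Their median difference was -0.60 in mouse 1 and 0.26 in mouse 2, and -0.19 over both. The sign of that median depended on single pools: it was 0.18 without the large and 0.27 without the small pool of mouse 1, and -0.31 without the large and -0.91 without the small pool of mouse 2. No test of blood against lymphatic genes was made, since genes are not replicates.

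**Figure D2:**
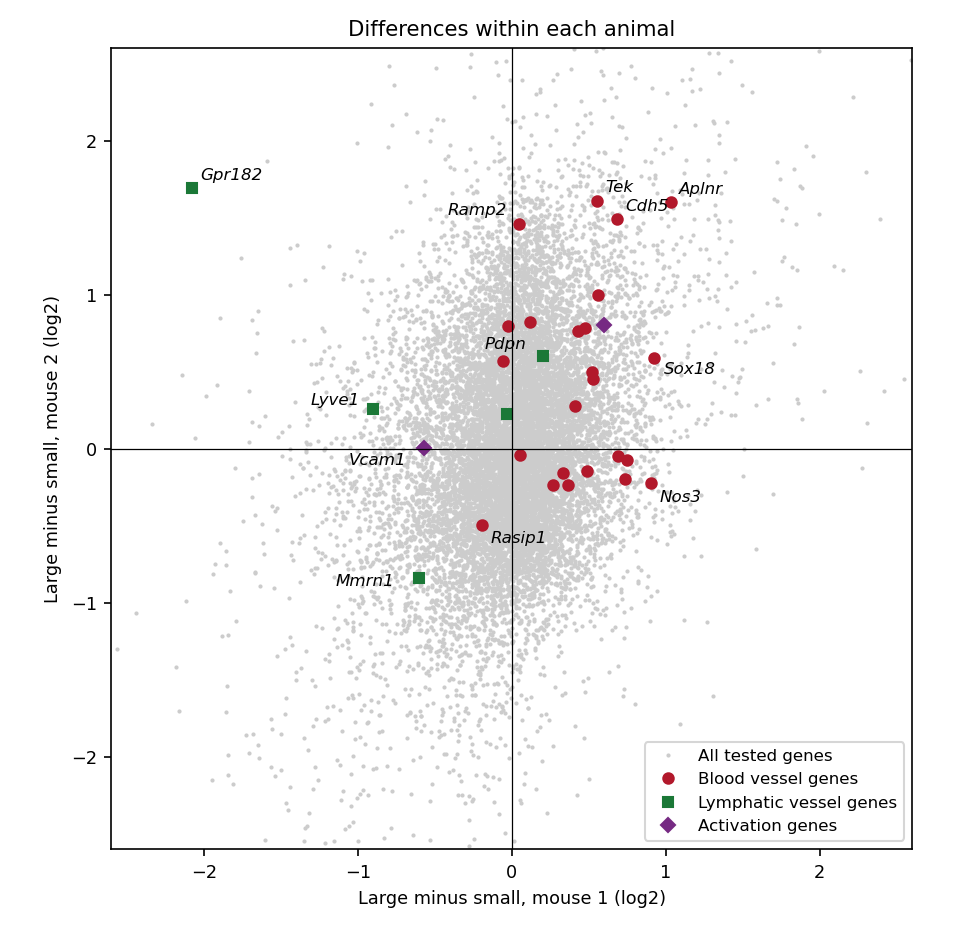
Large minus small difference (log2) of each tested gene in mouse 1 (x axis) and mouse 2 (y axis); grey points are all tested genes, circles blood vessel, squares lymphatic vessel and diamonds activation genes. Blood vessel genes lie mostly right of 0, Gpr182 lies far into the upper left, and 82 of the 13906 genes fall outside the axes.

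Mmrn1, a multimerin of lymphatic endothelium and platelets, measured 6.68 and 5.87 in large tumours, against 7.28 and 6.71 in small tumours. Both large pools lay below both small pools, and the difference was -0.72 ± 0.39 (SE; limma adjusted p = 0.681). It was -1.12 without the large pool of mouse 1 and -0.32 without the large pool of mouse 2. Pdpn, which encodes podoplanin and is also made by fibroblasts and some macrophages, measured 9.91 and 9.47 in large tumours, against 9.71 and 8.86 in small tumours, with overlapping groups. Lyve1 measured 6.84 and 6.83 in large tumours, against 7.74 and 6.57 in small tumours. The large pools were alike, and the small pools differed by -1.17 (mouse 2 minus mouse 1). Vegfc, the growth factor of lymphatic endothelium, measured 6.23 and 6.60 in large tumours, against 6.26 and 6.38 in small tumours, close together in all 4 pools.

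Gpr182, an atypical chemokine receptor of lymphatic and sinusoidal endothelium, varied most. It measured 5.03 and 6.27 in large tumours, against 7.11 and 4.58 in small tumours, the last not detected. In mouse 1 the large pool was lower by 2.08 on the log2 scale, and in mouse 2 it was higher by at least 1.44, so the mice went opposite ways. A second probe was likewise highest in the small pool of mouse 1 and next in the large pool of mouse 2, at 4.62 and 5.79 in large tumours, against 6.45 and 4.55 in small tumours, but its values in the large pool of mouse 1 and the small pool of mouse 2 were both not well above background and have no order. In the limma fit its difference was -0.19 ± 0.80 (SE; adjusted p = 0.961), the widest error of the tested vessel genes.

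The other lymphatic genes, 10 of 17 on the list tested, were divided as well. In both mice 4 (40%) were higher and 3 (30%) lower, near the 30.7% and 26.7% of all tested genes. None passed limma with or without the mouse block. Prox1, which some intestinal epithelial cells also express, measured 8.78 and 9.55 in large tumours, against 8.70 and 7.93 in small tumours. Ccl21a, the chemokine by which lymphatic endothelium draws dendritic cells, measured 9.67 and 8.06 in large tumours, against 9.41 and 6.89 in small tumours. Both were higher in both mice, by 0.08 and 1.62 for Prox1 and by 0.25 and 1.17 for Ccl21a, and the mouse made more difference to Ccl21a than the size. Reln, a secreted protein of lymphatic endothelium, measured 7.50 and 6.54 in large tumours, against 8.06 and 7.29 in small tumours (-0.57 and -0.75). Fgl2, which immune cells also make, measured 6.02 and 5.84 in large tumours, against 6.86 and 6.72 in small tumours, with groups that did not overlap (-0.84 and -0.88). Stab1, a scavenger receptor shared with macrophages, was higher by 0.62 and 0.76, and Thy1, shared with fibroblasts and T cells, by 0.68 and 0.98.

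**Figure D3:**
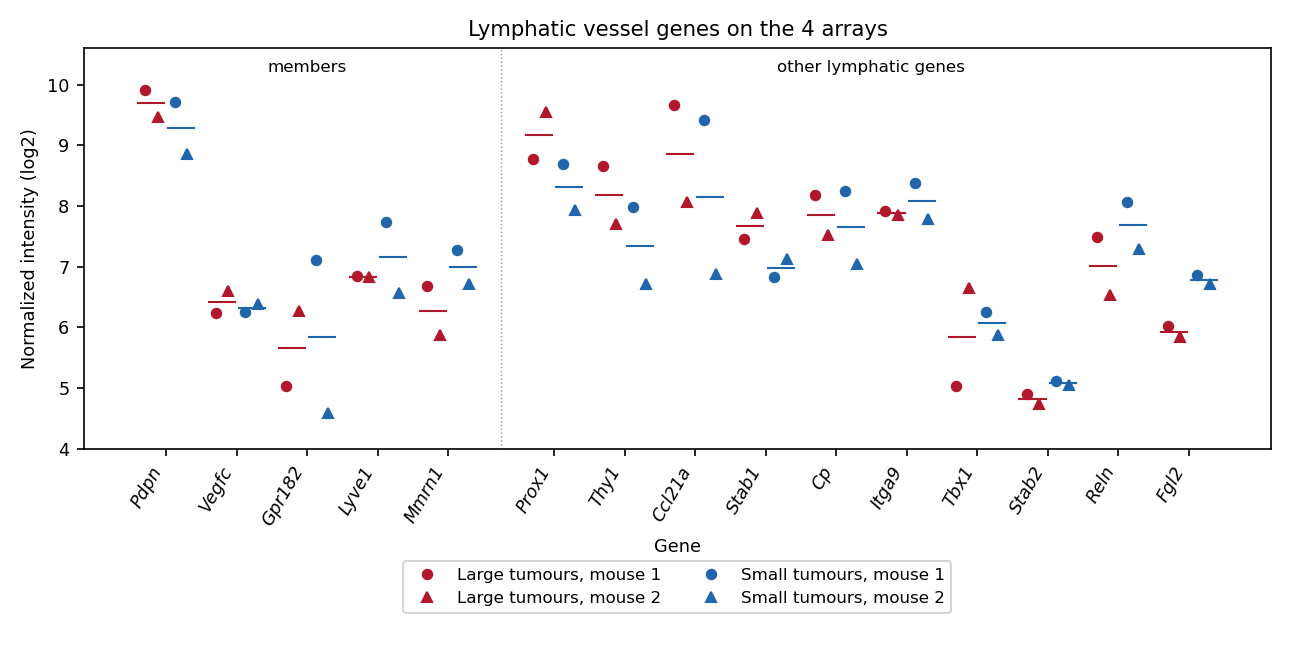
Log2 normalized intensity (y axis) of the 5 tested lymphatic members and 10 other tested lymphatic genes (x axis) on each array; red marks large and blue small tumours, circles mouse 1 and triangles mouse 2, and lines are means of 2 arrays. Mmrn1, Reln and Fgl2 were lower in large tumours within both mice, Prox1 and Ccl21a higher, and Gpr182 went opposite ways.

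Adhesion molecules of activated endothelium showed no common shift. Icam1, which many cell types express on inflammation, measured 8.81 and 8.38 in large tumours, against 8.21 and 7.58 in small tumours. Its large pools lay above its small pools (0.70 ± 0.35 (SE); limma adjusted p = 0.669), by 0.39 without the small pool of mouse 2. Vcam1 measured 7.52 and 6.94 in large tumours, against 8.09 and 6.94 in small tumours. It was lower in mouse 1 by 0.57 on the log2 scale and equal in mouse 2. Selp, the P-selectin of platelets and endothelium, was detected only in the large pool of mouse 1 (5.29, at least 0.50 above its small pool), and Sele, the E-selectin induced on inflamed endothelium, on no array.

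Of the 40 genes with a probe, 9 were not tested. Kdr, Apln, Ecscr, Erg and Sele were detected by no probe on any array. Ecscr, an endothelial sialomucin, had signals of 47.0 to 50.6. Angpt1, the vessel-stabilizing ligand of Tek, was detected by 1 of its 2 probes in the small pool of mouse 1 alone (4.95), and Pgf, a ligand of Flt1, in the large pool of mouse 1 alone (4.79). For Flt4, 1 probe was detected in the large pool and another in the small pool of mouse 1, so the probes gave no common direction. Of the 31 tested genes, 29 were detected on all 4 arrays and 2 (Tie1 and Gpr182) on 3, so none had entered through a single group. Of 19 vessel genes with several probes, 9 had a probe detected on every array beside another detected on none, among them Flt1, Vwf, Robo4, Angpt2 and Vcam1. For those genes the value given is that of the detected probe, and a probe not well above background on every array sets no limit on the level of its gene, Kdr and Erg included.

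Other genes of endothelium were on lists that did not include the members. Of 27 tested endothelial genes, 12 (44.4%) had higher and 3 had lower values in the large pool of each mouse, against 30.7% and 26.7% of all genes (medians 0.22 and 0.19), and 0 passed limma with or without the block. Gja4, a gap junction protein of arteries, was higher by 0.79 and 0.86, Palmd by 1.83 and 0.68, Esm1, a marker of sprouting tip cells, by 1.03 and 0.37, and Bcl6b, a repressor found in endothelium, by at least 0.74 and by 0.32. Cldn5, the endothelial claudin, measured 5.81 and 5.50 in large tumours, against 5.97 and 4.76 in small tumours, the last not detected. The TGF-beta family receptor gene Acvrl1 lay close to background on all 4 arrays, at 4.80 and 4.70 in large tumours, against 4.89 and 4.86 in small tumours. Of 12 tested endothelial transcription factors outside the members, 6 (50%) were higher and 2 (16.7%) lower in both mice, against the same shares of all genes (medians 0.26 and 0.41). Of these factors, 0 passed. Foxc1, which fibroblasts also express, was higher by 0.95 and at least 2.30, and Hhex by 0.93 and 0.899. Elk3 was higher by 0.48 and 0.33. Nr2f2, the venous and lymphatic factor, averaged 5.06 in large and 4.61 in small tumours, where it was not well above background. It was thus at least 1.19-fold higher in the large pools (adjusted p = 0.709 in limma). Nr2f2 counts among the 6 higher factors, though it passed the filter through the large pools alone.

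Of 18 tested ligands and signalling genes around these receptors, 8 (44.4%) had higher and 5 (27.8%) had lower values in the large pool of each mouse, against 30.7% and 26.7% of all genes (medians 0.09 and 0.05), and 0 passed limma with or without the block. Vash1, an inhibitor of angiogenesis made by endothelium, was higher by 0.80 and 0.76, Edn1, the vasoconstrictor endothelin, by 1.37 and 0.51, Hey1, a Notch target, by 0.49 and 1.01, and Id3, a target of BMP signalling, by 0.49 and 1.18. The main angiogenic ligand gene Vegfa, named after its values were seen, measured 9.000 and 9.52 in large tumours, against 9.45 and 9.48 in small tumours. It was not higher in both mice (-0.45 and 0.04). Hif1a, the oxygen-sensing factor that drives Vegfa and likewise named after its values were seen, measured 8.40 and 7.51 in large tumours, against 8.75 and 9.23 in small tumours. Its large pools lay below its small pools, by -0.35 and -1.72 (mean difference -1.03 ± 0.39 (SE); limma adjusted p = 0.605), which was the lowest mean difference of the list.

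Markers of other cell types moved beside the vessel genes. Of 9 tested fibroblast genes, 8 were higher in both mice and 0 lower, against 30.7% and 26.7% of all genes (medians 0.49 and 0.83). Among the 8, Pi16 was detected in both large pools and in neither small pool. It thus passed the filter through the large pools alone, and its differences are bounds (at least 0.06 and 0.67). Lum, a collagen-binding proteoglycan, was higher by 1.72 and 1.61 and passed limma with the mouse block (adjusted p = 0.0439), though not without it (limma adjusted p = 0.684). The summed linear intensity of the fibroblast genes was 11626 in large tumours, against 8145 in small tumours, in mouse 1, and 6050 in large tumours, against 3646 in small tumours, in mouse 2. It was lower in mouse 2 than in mouse 1 at both sizes. Of 10 tested genes of pericytes and smooth muscle, 6 (60%) had higher values in the large pool of each mouse and 0 had lower values, against the same shares of all genes. Their medians were 0.33 and 0.10, and their sums 5542 to 10786 in large, against 3824 to 9469 in small tumours. The blood vessel members summed to 7586 in large tumours, against 5590 in small tumours, in mouse 1, and to 6540 in large tumours, against 4802 in small tumours, in mouse 2. The sums of vessel and of fibroblast genes were thus both higher in the large pool of each mouse. Dcn, the brightest fibroblast gene, weighs most in the fibroblast sum and was itself higher by 0.46 and 0.79. Acta2 weighs most in the sum of pericyte and smooth muscle genes and was higher by 0.16 and 0.69. The sums of epithelial genes ran the other way, at 47776 to 50706 in large tumours, against 54150 to 62497 in small tumours. Of the 9 tested, 5 (55.6%) were lower and 2 (22.2%) higher in both mice. Their median difference was -0.20 in mouse 1 and -0.03 in mouse 2, where 4 were higher. Epcam, 1 of the 2 higher epithelial genes, was not detected in small tumours and passed the filter through the large pools alone.

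The summed intensities of macrophage genes, of platelet genes and of the lymphatic members had the same order of pools. Of 8 tested, 0 were higher and 2 lower in both mice, and their medians were -0.32 in mouse 1 and 0.73 in mouse 2. Their sums were 2510 in mouse 1 and 1621 in mouse 2 for large tumours, against 3216 and 1111 for small tumours. The lymphatic members summed to 1210 and 974 in large tumours, against 1341 and 692 in small tumours. Pdpn, the brightest of these members, weighs most in that sum. Its own order of pools differed (log2 9.91 and 9.47 in large tumours, against 9.71 and 8.86 in small tumours). Of 5 tested lymphocyte genes, 4 (80%) had lower values in the large pool of each mouse, against 26.7% of all genes (medians -0.86 and -0.57). For Cd2, 1 of the 4, both values in mouse 2 were not well above background. Ptprc, another, was detected in both small pools and in neither large pool, so it passed the filter through the small pools alone. The lymphocyte sums were 184 to 224 in large tumours, against 287 to 530 in small tumours. Platelet genes, which bear on Vwf, Selp and Mmrn1, were higher in 2 (40%) and lower in 1 (20%) of 5 in both mice, near the shares of all genes. They summed to 433 in mouse 1 and 426 in mouse 2 for large tumours, against 523 and 356 for small tumours. Gp1bb, the brightest platelet gene in both small pools, had another order of pools. It measured 7.61 and 7.90 in large tumours, against 8.33 and 8.29 in small tumours (log2). Of 4 red cell genes 3 (75%) had higher values in the large pool of each mouse and 0 lower, against 30.7% and 26.7% of all genes (sums 20267 to 23886, against 13609 to 22145). The part of these cell types in the vessel gene differences was not tested.

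**Figure D4:**
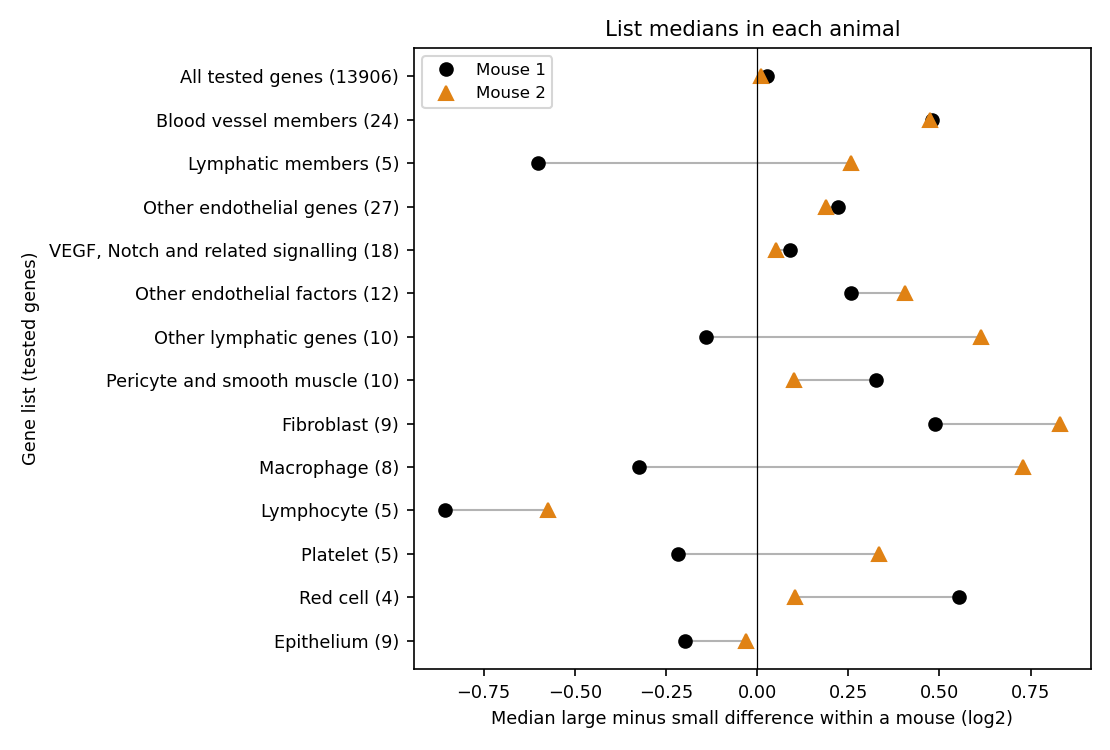
Median large minus small difference (log2, x axis) of each gene list (y axis, number of tested genes in brackets) in mouse 1 (circles) and mouse 2 (triangles). The blood vessel members lie at 0.48 and 0.47. Both lymphatic lists, the macrophage list and the platelet list lie below 0 in mouse 1 and above 0 in mouse 2.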

How the data were processed

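Biotin-labelled RNA of each of the 4 pools was measured on its own Illumina bead array. The signals are linear intensity values that the authors exported without normalization or background subtraction, per the file headers, from BSGX version 3.2.6, and the submitters' processing notes name BeadStudio. The deposited detection p-value compares a probe's signal with the array's negative controls, and the deposited count of beads per probe was at least 22 for the tested vessel genes. The authors also deposited normalized intensity values for 15274 probes, made by a method not given in the sources used here.

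R 4.3.3 and limma 3.58.1 were used, with neqc for normalization (normexp from detection p-values, offset 16, quantile, log2). Probes detected on at least 2 of 4 arrays were tested (20214), and the brightest tested probe on average stood for its gene. File symbols were updated through RefSeq GRCm38.p6 (27760 current, 7994 older, 9527 kept). Where an array did not detect a probe, its difference is a bound against the higher of the probe's value and the lowest detected value. Large and small tumours were compared with lmFit and eBayes, two-sided, Benjamini-Hochberg adjusted over all tested probes, on 2 residual degrees of freedom, or 1 with the mouse as a block. The shared variance to which eBayes drew each probe had 12.8 prior degrees of freedom in the blocked fit. A shared mouse number means a shared animal, per the labels, and across genes the difference between the mice in large pools correlated with that in small pools (Pearson r = 0.250). The fit was tested on simulated data. Summed intensities are of normalized linear values less the offset.

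The members, lists and tests were chosen with earlier results of these data known. Members are all named; of each other list, up to 4 genes are named that went the same way in both mice by the largest smaller difference, and markers where a result touches them. Prox1 and Ccl21a are named as lymphatic markers, Cldn5 and Acvrl1 for their names.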

Additional observations from a re-analysis of the deposited data

How the results depend on the processing

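Without the mouse as a block no probe passed. With the replicate block 120 of 20214 probes passed (68 higher, 52 lower), none of a vessel gene. With the block and only probes detected on all 4 arrays 322 of 16072 probes passed, among them that of 1 of 29 vessel genes (Aplnr, log2 difference 1.32). With the block and no background correction 0 probes passed. Median scaling passed 2 probes, and leaving out 1 array passed 0 to 70. The median difference of blood vessel genes, 0.37 as reported, was 0.26 with no background correction (with or without the block), 0.27 with an offset of 50, 0.29 with median scaling, 0.33 with no filter, 0.39 with the strict filter (with or without the block) and 0.28 with the authors' values. Leaving out 1 array it ran from 0.27 to 0.55, that of lymphatic genes from -0.91 to 0.27 and that of activation genes from -0.24 to 0.65. Vessel genes higher in large tumours numbered 14 of 31 in both mice, and 16 in both mice with the mean of a gene's tested probes. With the other mouse disregarded, 23 were higher in mouse 1 and 20 in mouse 2, each count including those 14. These single-mouse counts were settings chosen after seeing the data, and the shares of all genes were 53.3% and 50.7%.

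With median scaling the differences of Flt1 (-0.0688), Plvap (-0.0662) and Vwf (-0.0098) changed sign. Leaving out 1 array changed the sign of 16 of 31 genes, none of them called: Pecam1 ran from -0.088 to 0.76, Flt1 from -0.22 to 0.24, Robo4 from -0.085 to 0.25, Plvap from -0.16 to 0.199, Vwf from -0.31 to 0.44, Mmrn2 from -0.018 to 0.36, Nos3 from -0.11 to 0.79, Ets1 from -0.098 to 0.63, Gpr182 from -1.46 to 1.07, Cd34 from -0.11 to 0.795, Vcam1 from -0.86 to 0.29, Vegfc from -0.088 to 0.28, Lyve1 from -0.91 to 0.27, Icam2 from -0.13 to 0.90, Tie1 from -0.25 to 0.76 and Pdpn from -0.0196 to 0.83. The other 15 genes kept their direction, Aplnr from 0.96 to 1.68. Such a fit compares sizes over unlike numbers of pools per mouse, and takes the spread of the lone pool from the other size. The causes were not tested.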
